A study of Rattus norvegicus with 16 samples.

Results

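Aqp4, Aqp1 and Aqp7 are 3 of the 12 aquaporin genes that have a named probe set on the rat array used here, and they belong to the 10416 genes that passed the filter on low values. The members were chosen by symbol, as the fibre water channel, the endothelial water channel and the glycerol channel, with earlier results of these arrays known. Aqp1 had been named for its differences between EOM_fiber and TA_fiber and between EOM_synapse and EOM_fiber, and Aqp4 for its difference between EOM_synapse and EOM_fiber. Those measured values, the difference of Aqp4 between TA_synapse and TA_fiber, and the interactions that contain them are given as descriptions without a test.

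Messenger RNA was measured on 16 arrays in rectus extraocular muscle (EOM), which moves the eye, and in tibialis anterior (TA), a limb muscle. Regions at the neuromuscular junction, shown by acetylcholinesterase staining, and equal amounts of tissue away from it were cut by laser from sections 10 µm thick, about 1000 junctions for each muscle. The groups EOM_synapse, EOM_fiber, TA_synapse and TA_fiber held 4 arrays each, 1 from each of 4 rats numbered 15, 25, 27 and 29; strain, age and sex are not given in the sources used here. No rat had a treatment or mutation, so all comparisons are between regions and muscles of the same animals.

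Aquaporins are membrane channels that let water, and in some members glycerol, cross the membrane along its gradient. In skeletal muscle Aqp4 sits in the sarcolemma of fast fibres, where the dystrophin-associated complex anchors it. Aqp1 lies in the endothelium of capillaries and in red cells, and Aqp7, an aquaglyceroporin, carries glycerol and is best known in adipocytes.

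The RefSeq promoters of the members are shown because Aqp4 and Aqp1 were both lower at the junction than in fibre, and motifs that control genes of muscle and of the postsynaptic membrane are known. Each window holds 250 bases before and 50 bases after a start of transcription on assembly GRCr8, and 2 of the 3 genes had an entry. Capitals mark matches to the E-box CANNTG, the motif of myogenic factors, to the N-box CCGGAA, the motif of ETS factors at synaptic genes, and to the TATA motif TATAAA, searched on both strands. No match of one motif overlapped another.
Aqp4, chr18:6798793-6799092, minus strand: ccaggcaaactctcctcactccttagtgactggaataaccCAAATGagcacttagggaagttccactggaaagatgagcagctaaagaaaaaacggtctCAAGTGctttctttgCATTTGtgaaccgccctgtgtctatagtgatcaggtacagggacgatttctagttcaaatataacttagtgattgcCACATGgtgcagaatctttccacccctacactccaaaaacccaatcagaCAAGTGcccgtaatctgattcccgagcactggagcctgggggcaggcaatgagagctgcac
Aqp4, chr18:6797877-6798176, minus strand: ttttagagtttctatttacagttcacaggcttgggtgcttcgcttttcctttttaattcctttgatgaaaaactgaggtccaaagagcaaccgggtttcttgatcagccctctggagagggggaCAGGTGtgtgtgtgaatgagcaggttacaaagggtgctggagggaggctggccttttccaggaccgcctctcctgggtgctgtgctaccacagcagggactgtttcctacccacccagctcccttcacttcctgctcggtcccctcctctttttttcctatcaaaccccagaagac
Aqp1, chr4:85812534-85812833, plus strand: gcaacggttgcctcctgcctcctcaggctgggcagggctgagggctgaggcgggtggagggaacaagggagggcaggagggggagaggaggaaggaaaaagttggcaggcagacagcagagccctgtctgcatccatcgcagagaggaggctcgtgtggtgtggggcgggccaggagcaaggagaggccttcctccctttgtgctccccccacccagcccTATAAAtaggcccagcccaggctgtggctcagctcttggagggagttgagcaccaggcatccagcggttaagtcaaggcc
The first Aqp4 window held 5 E-box matches, at -210, -151, -136, -60 and -11 from the start site, and the second window held 1, at -126. The Aqp1 window held no E-box match and 1 TATA match at -30. None of the 3 windows had an N-box match. Of 33469 promoter windows of the same length, 72.1% held an E-box match, 15.0% an N-box match and 14.2% a TATA match, so these matches describe the letters and no binding.

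Values below are quantile-normalized log2(intensity + 16), differences are log2 ± SE from the limma fit over all genes, and arrays are listed in the order of rats 15, 25, 27 and 29. With the pseudocount of 16, folds of dim probe sets come out smaller than the ratio of their intensities. Away from the junctions, 8.4% of the 10416 genes were higher and 7.15% lower in EOM_fiber than in TA_fiber at an adjusted p under 0.05. Between junctions 7.82% were higher and 8.61% lower in EOM_synapse than in TA_synapse. At the junction against fibre 5.62% were higher and 4.51% lower in EOM, and 6.7% were higher and 3.53% lower in TA. The interaction, the junction difference of EOM minus that of TA, passed in 0.922% of genes.

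Aqp4 was far lower at the junctions of both muscles than in the fibre of the same muscle. Its mean levels in EOM and TA were close to each other in each region, but single rats differed by more. The difference of EOM minus TA in single rats ran from -1.41 to 0.32 in fibre and from -1.37 to 1.31 at the junction. On its probe set 1372190_at, which stands for the gene, EOM_synapse had 6.68, 6.71, 6.86 and 7.75, against 8.67, 10.46, 9.95 and 10.66 in EOM_fiber. TA_synapse had 7.01, 8.08, 5.55 and 7.12, against 10.09, 10.69, 9.97 and 10.35 in TA_fiber. Every junction array lay below every fibre array, and neither pair of groups overlapped. The deposited intensity spanned 93.1 to 214 in EOM_synapse and 382 to 1581 in EOM_fiber. It spanned 38.4 to 258 in TA_synapse and 1053 to 1698 in TA_fiber.

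**Figure D1:**
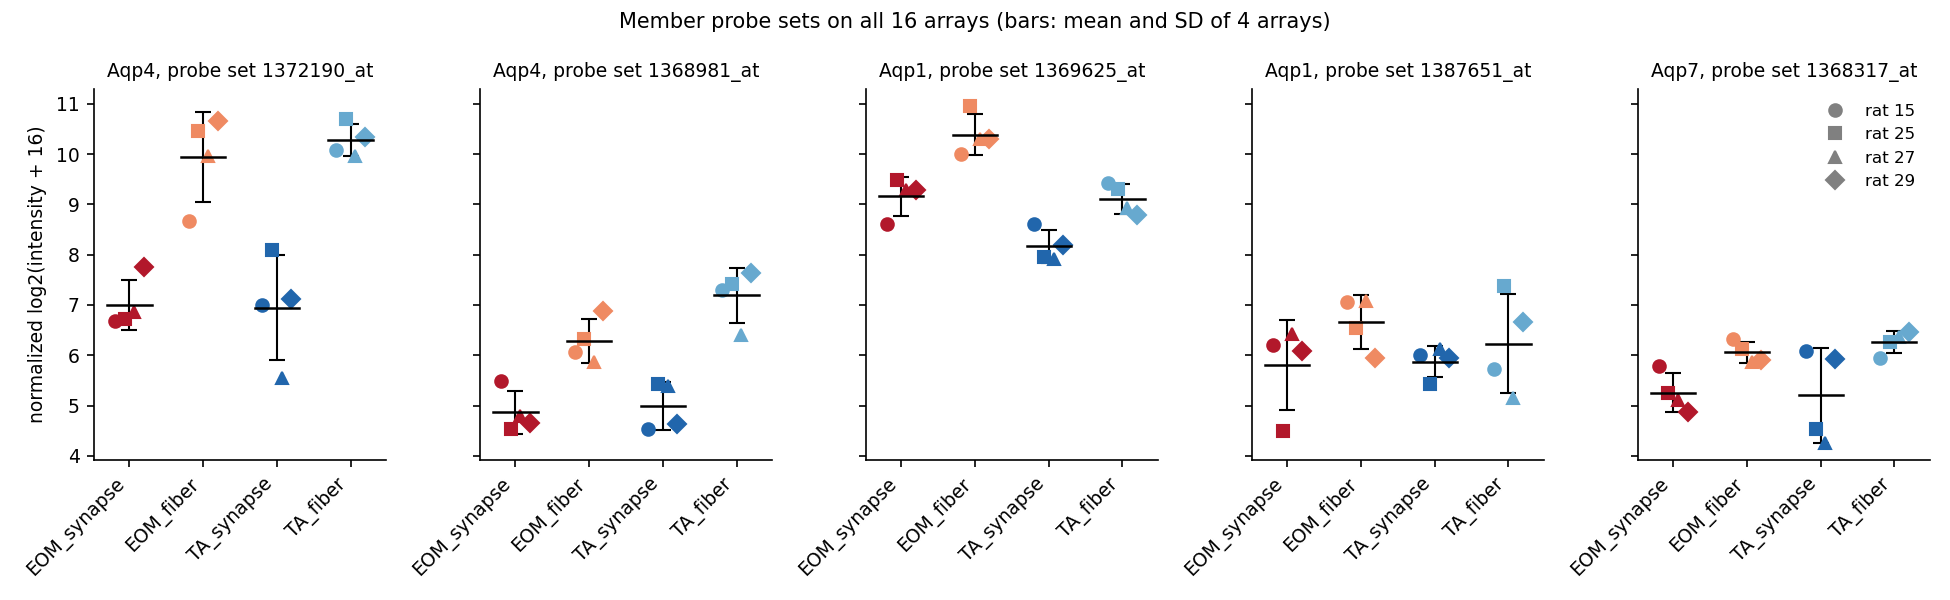
Quantile-normalized log2(intensity + 16) of the 5 member probe sets that passed the filter, in EOM_synapse, EOM_fiber, TA_synapse and TA_fiber from left to right. Each point is 1 array, its shape is the rat, and bars give the mean and SD of 4 arrays; on 1372190_at all 8 junction arrays of Aqp4 lie below all 8 fibre arrays.

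The difference of Aqp4 between EOM_synapse and EOM_fiber was -2.94 ± 0.39, or 7.65-fold lower at the junction. It was the 4th lowest among 10416 genes and ran from -3.75 to -1.99 in single rats. Between TA_synapse and TA_fiber the difference was -3.33 ± 0.39, or 10.1-fold lower, the lowest of all genes in that comparison, and it ran from -4.41 to -2.60 in single rats. The junction difference of EOM minus that of TA was 0.40 ± 0.56, smaller than its error. Groups that do not overlap were found for 8.92% of genes on the lower side in EOM and 5.61% in TA.

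Between the muscles Aqp4 did not pass the threshold in either region. EOM_fiber averaged 9.94 ± 0.89 and TA_fiber 10.27 ± 0.32 (SD, n = 4 each), a difference of -0.33 ± 0.39 that was lower in 3 of 4 rats (limma adjusted p = 0.622). EOM_synapse averaged 7.0 ± 0.50 and TA_synapse 6.94 ± 1.04, a difference of 0.06 ± 0.39 with 2 of 4 rats higher (limma adjusted p = 0.945). The order of levels was TA_fiber, EOM_fiber, EOM_synapse and TA_synapse, and only the step between EOM_fiber and EOM_synapse exceeded the spread of its neighbours. These arrays are also those of the comparisons that chose Aqp4, so the p-values are not independent of the choice.

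The EOM_fiber array of rat 15 held the lowest fibre value of Aqp4 and has the highest median intensity of all 16 arrays. Without it the difference between EOM_fiber and TA_fiber was 0.04 (adjusted p = 0.962). Without the 3 arrays of highest median, EOM_fiber 15, TA_synapse 27 and TA_fiber 25, that difference was 0.06 (adjusted p = 0.927) and the difference between EOM_synapse and TA_synapse was -0.34 (adjusted p = 0.477). The junction differences of Aqp4 stayed between -3.32 and -2.62 in EOM and between -3.63 and -2.92 in TA when any array or rat was left out.

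Aqp4 has another pair of probe sets, of which 1 passed the filter. On 1368981_at EOM_synapse had 5.49, 4.53, 4.79 and 4.65, against 6.06, 6.33, 5.88 and 6.87 in EOM_fiber, a difference of -1.42 ± 0.34. TA_synapse had 4.54, 5.43, 5.39 and 4.63, against 7.30, 7.42, 6.40 and 7.63 in TA_fiber, a difference of -2.19 ± 0.34. None of the 8 junction arrays exceeded its own array's median on this probe set, with intensities of 6.49 to 31.9, so it passed the filter only through its fibre arrays. Its junction differences are therefore values near background on 1 side and add no separate support to those of 1372190_at. EOM_fiber lay below TA_fiber by -0.91 ± 0.34 (limma adjusted p = 0.0912 over 13647 probe sets). The last probe set, 1387397_at, exceeded the array median in 2 of 16 arrays and did not pass the filter. Over the 16 arrays 1372190_at and 1368981_at correlated with r = 0.843, a value that the 4 groups and shared rats enter.

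**Figure D2:**
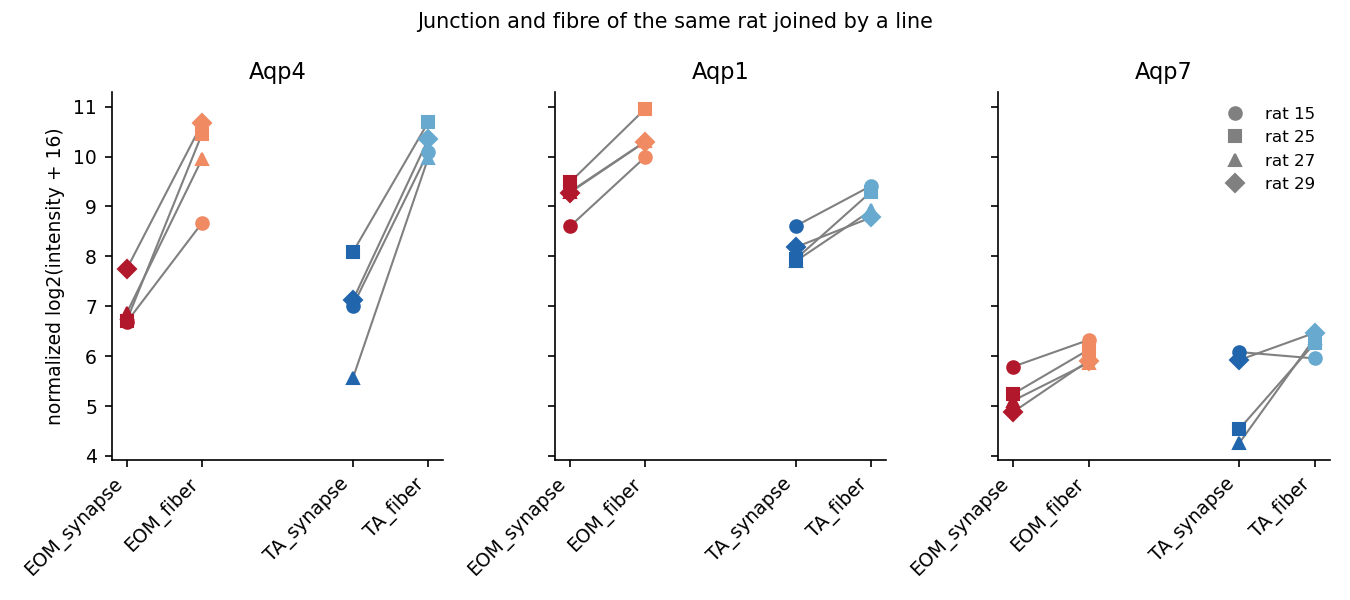
Normalized log2(intensity + 16) of Aqp4, Aqp1 and Aqp7 in the 4 groups, with lines that join the junction array (left of each pair) and the fibre array of the same rat. All lines of Aqp4 and Aqp1 rise towards fibre, and for Aqp7 all do except that of rat 15 in TA.

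Aqp1 was lower at the junction than in fibre in both muscles, and higher in EOM than in TA in both regions. On probe set 1369625_at EOM_synapse had 8.60, 9.48, 9.29 and 9.28, against 9.99, 10.96, 10.30 and 10.30 in EOM_fiber. TA_synapse had 8.61, 7.95, 7.91 and 8.19, against 9.42, 9.30, 8.92 and 8.78 in TA_fiber. EOM_fiber stood above every array of the other groups, and TA_synapse below every TA_fiber array. Between EOM_fiber and TA_fiber 8.39% of all genes were higher without overlap. On the lower side the shares without overlap were 8.92% at the EOM junction and 5.61% at the TA junction. The order of levels was EOM_fiber, EOM_synapse, TA_fiber and TA_synapse, and the values of EOM_synapse and TA_fiber overlapped.

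The difference of Aqp1 between EOM_fiber and TA_fiber was 1.28 ± 0.26, or 2.43-fold, with 4 of 4 rats higher. Between EOM_synapse and EOM_fiber it was -1.22 ± 0.26, or 2.33-fold lower, and ran from -1.47 to -1.01 in single rats. Both are values that chose the gene and stand without a test. Between TA_synapse and TA_fiber, which the choice did not use, Aqp1 fell by 0.94 ± 0.26 on the log2 scale in 4 of 4 rats (limma adjusted p = 0.0348). Between EOM_synapse and TA_synapse it was higher by 1.0 ± 0.26 in 3 of 4 rats (limma adjusted p = 0.0183), with groups that overlapped: rat 15 had 8.60 in EOM_synapse and 8.61 in TA_synapse. The TA_fiber and EOM_synapse arrays of these 2 tests also entered the comparisons that chose Aqp1. The junction difference of EOM minus that of TA was -0.28 ± 0.37.

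Both calls for Aqp1 rested on single arrays. The TA junction difference lost its call when any 1 of the TA_fiber arrays of rats 15, 25 and 27 or of the TA_synapse arrays of rats 25, 27 and 29 was dropped (limma adjusted p = 0.0653 to 0.133), and its value stayed between -1.16 and -0.75 in all 20 fits that left out an array or a rat. The difference between EOM_synapse and TA_synapse lost its call when any 1 of the EOM_synapse arrays of rats 25, 27 and 29 or of the TA_synapse arrays of rats 25 and 27 was dropped (limma adjusted p = 0.056 to 0.0723), with values from 0.81 to 1.35. The other probe set of Aqp1, 1387651_at, averaged 5.81 ± 0.89 in EOM_synapse and 6.66 ± 0.53 in EOM_fiber, and 5.88 ± 0.31 in TA_synapse and 6.23 ± 0.98 in TA_fiber (SD, n = 4 each). On it the TA junction difference was -0.35 ± 0.50 (adjusted p = 0.755) and the difference between EOM_synapse and TA_synapse was -0.07 ± 0.50 (adjusted p = 0.952). Its intensity was as low as 6.93 in EOM_synapse, and it correlated with 1369625_at with r = 0.314 over the 16 arrays. Whether the pair of probe sets differed in any comparison was not tested.

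Aqp7 had lower values at the junctions than in most fibre arrays, and no difference of it passed the threshold. On probe set 1368317_at EOM_synapse had 5.79, 5.24, 5.11 and 4.88, against 6.32, 6.13, 5.87 and 5.91 in EOM_fiber. TA_synapse had 6.08, 4.54, 4.26 and 5.92, against 5.95, 6.26, 6.36 and 6.47 in TA_fiber. The EOM groups did not overlap, as for 8.92% of all genes on the lower side. In TA_synapse the array of rat 15 reached the range of TA_fiber and that of rat 29 lay just below it. The deposited intensity was low throughout, at 15.6 to 38.8 in EOM_synapse, 44.2 to 79.9 in EOM_fiber, 3.85 to 46.6 in TA_synapse and 43.9 to 68.3 in TA_fiber. Aqp7 exceeded the array median in 9 of 16 arrays, 0 of EOM_synapse, 3 of EOM_fiber, 2 of TA_synapse and 4 of TA_fiber, so it passed the filter mainly through its fibre arrays.

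The difference of Aqp7 was -0.80 ± 0.33 between EOM_synapse and EOM_fiber (limma adjusted p = 0.149, lower in 4 of 4 rats). It was -1.06 ± 0.33 between TA_synapse and TA_fiber (limma adjusted p = 0.0598, lower in 3 of 4 rats), a value past the threshold without TA_fiber 15, TA_synapse 15 or TA_synapse 29 (adjusted p = 0.024 to 0.0421). Between EOM_fiber and TA_fiber it was -0.20 ± 0.33 (limma adjusted p = 0.732), and between EOM_synapse and TA_synapse 0.06 ± 0.33 (limma adjusted p = 0.938). The interaction was 0.26 ± 0.47 (limma adjusted p = 0.898). The order of levels was TA_fiber, EOM_fiber, EOM_synapse and TA_synapse, and TA_fiber overlapped EOM_fiber as EOM_synapse overlapped TA_synapse.

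**Figure D3:**
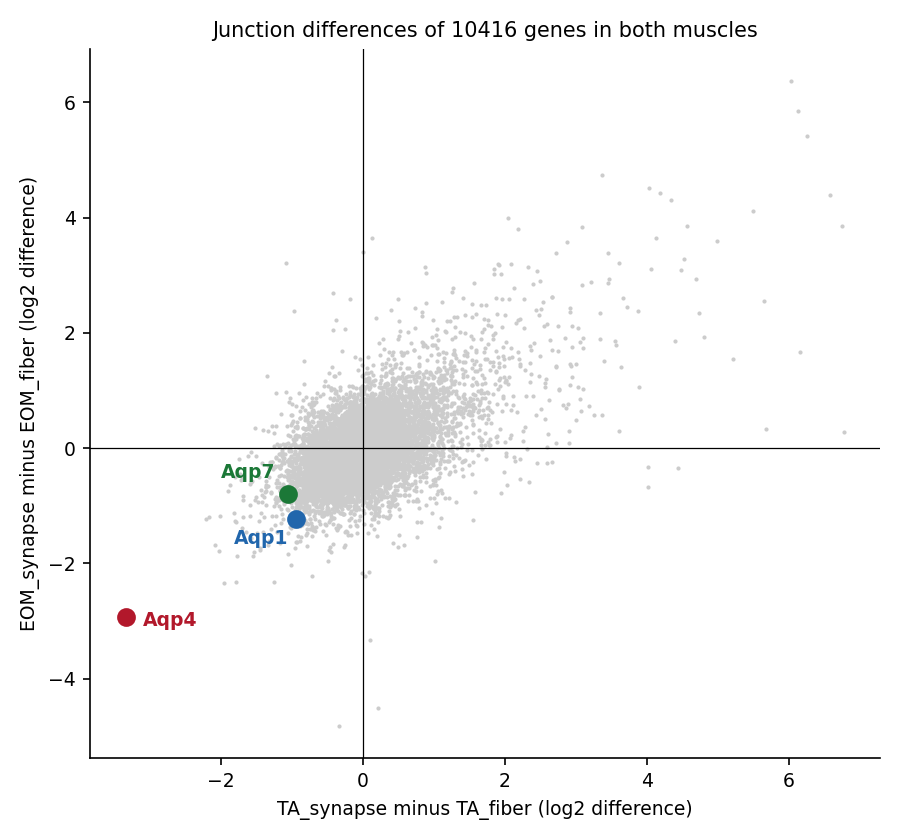
The log2 junction difference in TA (x axis, TA_synapse minus TA_fiber) and in EOM (y axis, EOM_synapse minus EOM_fiber) for the 10416 genes tested, in grey, with the members in colour. Aqp4 lies at -3.33 in TA and -2.94 in EOM, the lowest point on the x axis. Aqp1 and Aqp7 lie at the lower left of the centre, with other genes lower than both on each axis.

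Of the 9 aquaporin genes that are not members, only Aqp12a passed the filter. Aqp12a averaged 5.85 ± 0.25 in EOM_synapse, 6.31 ± 0.77 in EOM_fiber, 5.41 ± 0.52 in TA_synapse and 6.02 ± 0.67 in TA_fiber, and its groups overlapped in all 4 comparisons. Its junction differences were -0.46 ± 0.38 in EOM (limma adjusted p = 0.494) and -0.61 ± 0.38 in TA (limma adjusted p = 0.373). The lens channel Mip and Aqp2, Aqp3, Aqp5, Aqp6, Aqp8, Aqp9 and Aqp11 lay below the filter, none of them above the array median in more than 2 of 16 arrays.

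The labelled tissue was checked with Acta1, Ckm, Ttn and Neb, genes of the muscle fibre, whose summed intensity spanned 44597 to 69527 in EOM_synapse, 79641 to 103630 in EOM_fiber, 89726 to 139062 in TA_synapse and 109025 to 221216 in TA_fiber. Skeletal muscle actin Acta1 differed by -0.39 ± 0.18 between EOM_synapse and EOM_fiber (limma adjusted p = 0.189) and by 0.03 ± 0.18 between TA_synapse and TA_fiber (limma adjusted p = 0.94). After quantile normalization the differences of all 4 genes ran from -0.48 to -0.28 at the EOM junction and from -0.07 to 0.03 at the TA junction, and none passed the threshold there. As deposited, the median of their summed intensity was 52748 in EOM_synapse against 96774 in EOM_fiber. In TA_synapse it was 107379 against 141378 in TA_fiber, so the sum was lower at both junctions. The differences of Aqp4, -2.94 and -3.33, lay below those of all 4 genes. Schwann cell genes, a mark of the captured junction, rose for 6 of 9 genes at each junction, beside 5.62% of all genes in EOM and 6.7% in TA. S100b was higher by 2.90 ± 0.32 in EOM and 2.5 ± 0.32 in TA. Of the 9 genes, 1 exceeded the array median in no EOM_fiber array and 3 in no TA_fiber array. Such genes passed the filter through other groups, so the counts add no separate support for the capture. The summed intensity of the 9 genes spanned 6991 to 11762 in EOM_synapse, 1759 to 2694 in EOM_fiber, 3427 to 5582 in TA_synapse and 544 to 785 in TA_fiber. In these samples of many cells, fewer cells of a type and less RNA per cell cannot be told apart.

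Fast and slow fibre genes were set beside Aqp4 because its protein is known from fast fibres. In EOM_synapse against EOM_fiber 6 of 14 fast fibre genes fell and none rose, among them the fast 2A myosin heavy chain Myh2 (-2.22 ± 0.25), the myosin-binding protein Mybpc2 (-1.33) and the calcium buffer Casq1 (-1.32), with a list median of -0.60. As deposited 9 fell with a median of -0.95, and after median centring 7 fell with a median of -0.82. In TA_synapse against TA_fiber 1 of 14 fell, the fast 2X heavy chain Myh1 (-1.0 ± 0.23), a call lost without 1 of the arrays TA_fiber 27, TA_fiber 29 and TA_synapse 29 (limma adjusted p = 0.0501 to 0.0516). The list median in TA was 0.00091, but -0.39 on values as deposited, where 3 genes fell, and -0.43 after median centring, where 2 fell. Of 9 slow fibre genes 7 fell in EOM and 5 in TA, with the light chain Myl3 at -2.35 ± 0.37 and -1.96 ± 0.37 and list medians of -1.86 and -1.25, and with 1 array left out 5 to 8 fell in EOM and 2 to 5 in TA. The medians over all genes tested were -0.04 at the EOM junction and -0.01 at the TA junction. Whether the makeup of fibre types has a part in the values of Aqp4 was not tested.

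Genes of the dystrophin-associated complex, which anchors Aqp4, lay on both sides of 0 at the junctions. Of its 15 listed genes 7 were tested, of which 2 rose and 1 fell at the EOM junction and 2 rose and none fell at the TA junction, with list medians of 0.04 and -0.04. Dmd, the dystrophin gene, lay below the filter. Dtna, which encodes alpha-dystrobrevin, was higher by 1.25 ± 0.20 in EOM_synapse than in EOM_fiber and by 0.98 ± 0.20 in TA_synapse than in TA_fiber (limma adjusted p = 0.00136 and 0.0062). Utrn, the junctional dystrophin relative utrophin, was higher by 0.88 ± 0.26 in EOM and 1.05 ± 0.26 in TA (limma adjusted p = 0.0498 and 0.0216). It averaged 5.12 in EOM_fiber and 4.84 in TA_fiber, values near background, against 6.0 in EOM_synapse and 5.89 in TA_synapse. Utrn thus passed the filter mainly through the junction arrays, where it is high, and its p-values add no separate support. The EOM call of Utrn was lost in 14 of 16 fits without 1 array (limma adjusted p = 0.0508 to 0.168), and its TA call was lost when TA_fiber 25, TA_fiber 29, TA_synapse 15 or TA_synapse 25 was dropped (limma adjusted p = 0.0602 to 0.084). Sgca, alpha-sarcoglycan, was the gene that fell, with -0.86 ± 0.19 at the EOM junction (limma adjusted p = 0.0127), a call kept without any 1 array and lost without rat 15, 25 or 27 (limma adjusted p = 0.0505 to 0.0825). Cav3, the muscle caveolin, had -0.88 ± 0.27 in EOM and -0.85 ± 0.27 in TA and did not pass (limma adjusted p = 0.057 and 0.0645). Dag1, the laminin receptor dystroglycan, differed by 0.37 ± 0.26 in EOM and 0.30 ± 0.26 in TA (limma adjusted p = 0.426 and 0.563).

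Several transporters and regulators of cell volume and osmolytes were higher in EOM than in TA. Of 14 tested genes 5 rose and none fell in EOM_fiber against TA_fiber, with a list median of 0.44, and 3 rose and 1 fell in EOM_synapse against TA_synapse, with a median of 0.22. The list median was -0.17 at the EOM junction and 0.06 at the TA junction. Slc6a6, the taurine transporter, was higher by 1.95 ± 0.18 between the fibre groups and by 2.42 ± 0.18 between the junctions. Stk39, a kinase that controls cation-chloride cotransporters, was higher by 2.00 ± 0.22 and 1.74 ± 0.22, and Nfat5, the transcription factor of the hypertonic response, by 2.02 ± 0.28 and 1.24 ± 0.28. The values of Aqp1 in the same comparisons were 1.28 and 1.0, and those of Aqp4 were -0.33 and 0.06. At the TA junction the myo-inositol transporter Slc5a3 was higher by 2.37 ± 0.39 (limma adjusted p = 0.00147). Kcnj10, the potassium channel that accompanies Aqp4 in glia, and the osmosensitive channel Trpv4 lay below the filter.

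Among endothelial genes more were lower than higher at both junctions. Between EOM_fiber and TA_fiber 2 of 16 were higher and none lower, beside 8.4% of all genes higher, and 0 to 3 were higher with 1 array left out. Between EOM_synapse and TA_synapse, where Aqp1 was called higher, none of the 16 was higher and 1 was lower. Over all genes 7.82% were higher and 8.61% lower there, so these counts are near the share of all genes. As deposited 2 of the 16 were higher, and 0 to 1 were higher with 1 array left out. The list medians of the fibre and the junction comparison were 0.38 and 0.33, against 0.03 and 0.0055 over all genes. Of 16 measured markers, among which Aqp1 is not counted, 5 fell and 1 rose in EOM_synapse against EOM_fiber, with a list median of -0.55, and 4 fell and 1 rose in TA_synapse against TA_fiber, with a median of -0.53. The von Willebrand factor gene Vwf had -1.10 ± 0.32 at the EOM junction (limma adjusted p = 0.0433) and was higher by 1.21 ± 0.32 in EOM_fiber than in TA_fiber (limma adjusted p = 0.02), and Emcn, endomucin, was higher by 0.82 ± 0.22 in the fibre comparison. The adhesion molecule Pecam1 differed by -0.43 ± 0.36 at the EOM junction, -0.25 ± 0.36 at the TA junction and 0.61 ± 0.36 between the fibre groups (limma adjusted p = 0.509, 0.743 and 0.291). Plvap, a diaphragm protein of fenestrated endothelium, went the opposite way, higher by 2.55 ± 0.37 at the EOM junction and 5.65 ± 0.37 at the TA junction. It was also the 1 gene that was lower in EOM_synapse than in TA_synapse. Cdh5, the cadherin of endothelial junctions, had no named probe set.

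These endothelial calls depended on single arrays, while those of Plvap at both junctions and between EOM_synapse and TA_synapse did not. With 1 array left out, 1 to 6 of the 16 genes fell at the EOM junction and 0 to 5 at the TA junction, and 0 fell in either after median centring. The call of Vwf at the EOM junction was lost in 11 of 16 fits without 1 array, with a limma adjusted p of 0.0516 to 0.129. Its call in the fibre comparison was lost when EOM_fiber 25, TA_fiber 25 or TA_fiber 27 was dropped (limma adjusted p = 0.06 to 0.0674). The call of Emcn there was lost when EOM_fiber 15, EOM_fiber 25, TA_fiber 15, TA_fiber 25 or TA_fiber 27 was dropped (limma adjusted p = 0.0534 to 0.0789). After median centring the list medians were still -0.45 in EOM and -0.48 in TA. The summed intensity of the 16 markers spanned 2363 to 3215 in EOM_synapse, 3710 to 4435 in EOM_fiber, 3141 to 4511 in TA_synapse, where Plvap is included, and 2405 to 3325 in TA_fiber. In every group each of the 16 markers exceeded the median of at least 1 array. Their part in the result for Aqp1 was not tested.

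Red cells also carry Aqp1, but only 3 of 10 erythrocyte genes were measured, and Hba-a1, the alpha globin gene, had no named probe set. The beta globin gene Hbb differed by -0.67 at the EOM junction (limma adjusted p = 0.345), by -1.01 at the TA junction (limma adjusted p = 0.159) and by 1.21 between the fibre groups (limma adjusted p = 0.0652), and it was higher by 1.54 in EOM_synapse than in TA_synapse (limma adjusted p = 0.0217). That call was lost when the EOM_synapse or TA_synapse array of rat 15 or 25 was dropped (limma adjusted p = 0.0759 to 0.0872). Slc4a1, the anion exchanger of red cells, went the other way between the junctions, with -1.06 ± 0.30 in EOM_synapse against TA_synapse (limma adjusted p = 0.0296), and had -1.17 ± 0.30 at the EOM junction (limma adjusted p = 0.0261). The first of these calls was lost when EOM_synapse 25, 27 or 29 or TA_synapse 27 or 29 was dropped, the other when EOM_fiber 15 or 29 or EOM_synapse 25, 27 or 29 was dropped (limma adjusted p = 0.0561 to 0.101 and 0.0677 to 0.0947). Alas2, the haem synthesis enzyme of red cell precursors, fell at the TA junction (-1.20 ± 0.28, limma adjusted p = 0.0153), a call lost without TA_synapse 27 (limma adjusted p = 0.0555). The summed erythrocyte intensity spanned 720 to 1758 in EOM_synapse, 1024 to 1947 in EOM_fiber, 189 to 852 in TA_synapse and 531 to 1256 in TA_fiber. Of the 3 genes, 2 exceeded the array median in no EOM_synapse array and 1 in no TA_synapse array, so they passed the filter through other groups. Their differences that use those junction groups set values near background on 1 side. All 3 genes were lower at both junctions, from -1.17 to -0.56 in EOM and from -1.20 to -0.03 in TA. Between the muscles they differed in sign, from -0.25 to 1.21 in fibre and from -1.06 to 1.54 at the junction. Their part in the result for Aqp1 was not tested either. Of 10 smooth muscle and pericyte genes, 3 fell and 1 rose at the EOM junction and 2 fell and 1 rose at the TA junction, and after median centring 0 and 1 fell.

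Genes of glycerol and triglyceride turnover, in which Aqp7 works, were more often lower than higher at both junctions. Of 15 tested genes 5 fell and none rose in EOM_synapse against EOM_fiber, and 7 fell and 1 rose in TA_synapse against TA_fiber, with list medians of -0.41 and -0.69. With 1 array left out 3 to 5 fell in EOM and 4 to 8 in TA. Dgat2, which makes triglyceride, fell at both, with -1.73 ± 0.27 in EOM and -1.44 ± 0.27 in TA, the TA call being lost without rat 29 (limma adjusted p = 0.0508). Lpin1, the phosphatidate phosphatase lipin, also fell at both, with -1.53 ± 0.21 in EOM and -0.91 ± 0.21 in TA, the TA call being lost without TA_fiber 15 (limma adjusted p = 0.054). Plin5, a lipid droplet coat protein of muscle, fell at both as well, with -1.17 ± 0.32 in EOM and -2.01 ± 0.32 in TA. Its EOM call was lost when EOM_fiber 15, EOM_fiber 25, EOM_synapse 15, EOM_synapse 27 or EOM_synapse 29 was dropped (limma adjusted p = 0.0683 to 0.117). G0s2, an inhibitor of adipose triglyceride lipase, fell in TA (-1.62 ± 0.25), as did Lpl, lipoprotein lipase (-1.42 ± 0.23). The values of Aqp7 beside them were -0.80 ± 0.33 in EOM and -1.06 ± 0.33 in TA, neither past the threshold.

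The enzymes that handle glycerol itself gave mixed values. Gk, glycerol kinase, differed by 0.85 ± 0.34 at the EOM junction (limma adjusted p = 0.137) and by -0.27 ± 0.34 at the TA junction (limma adjusted p = 0.704), and was higher by 1.72 ± 0.34 in EOM_synapse than in TA_synapse (limma adjusted p = 0.00377). Gpd1, the cytosolic glycerol-3-phosphate dehydrogenase, fell at the EOM junction (-1.20 ± 0.20) and in EOM_synapse against TA_synapse (-2.14 ± 0.20). Pnpla2, adipose triglyceride lipase, fell by 0.87 at the TA junction (limma adjusted p = 0.0155), a call lost when TA_fiber 15, TA_fiber 29, TA_synapse 15 or TA_synapse 25 was dropped (limma adjusted p = 0.0549 to 0.0564). Lipe, hormone-sensitive lipase, differed by -0.27 ± 0.24 at the TA junction (limma adjusted p = 0.564). Among 6 measured adipocyte genes Plin4, a lipid droplet protein that muscle also makes, was lower at both junctions (-1.73 in EOM and -0.95 in TA). The TA call of Plin4 was lost without TA_fiber 29 or TA_synapse 15 (limma adjusted p = 0.0522 to 0.0581). The adiponectin gene Adipoq differed by -0.62 and -0.56 (limma adjusted p = 0.428 and 0.51), and Plin1, Cidec and Lep lay below the filter. The summed adipocyte intensity spanned 669 to 932 in EOM_synapse, 1533 to 2257 in EOM_fiber, 1221 to 1389 in TA_synapse and 2537 to 2876 in TA_fiber, the 2 junction groups below the fibre groups. The part of adipocytes in the values of Aqp7 was not tested.

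**Figure D4:**
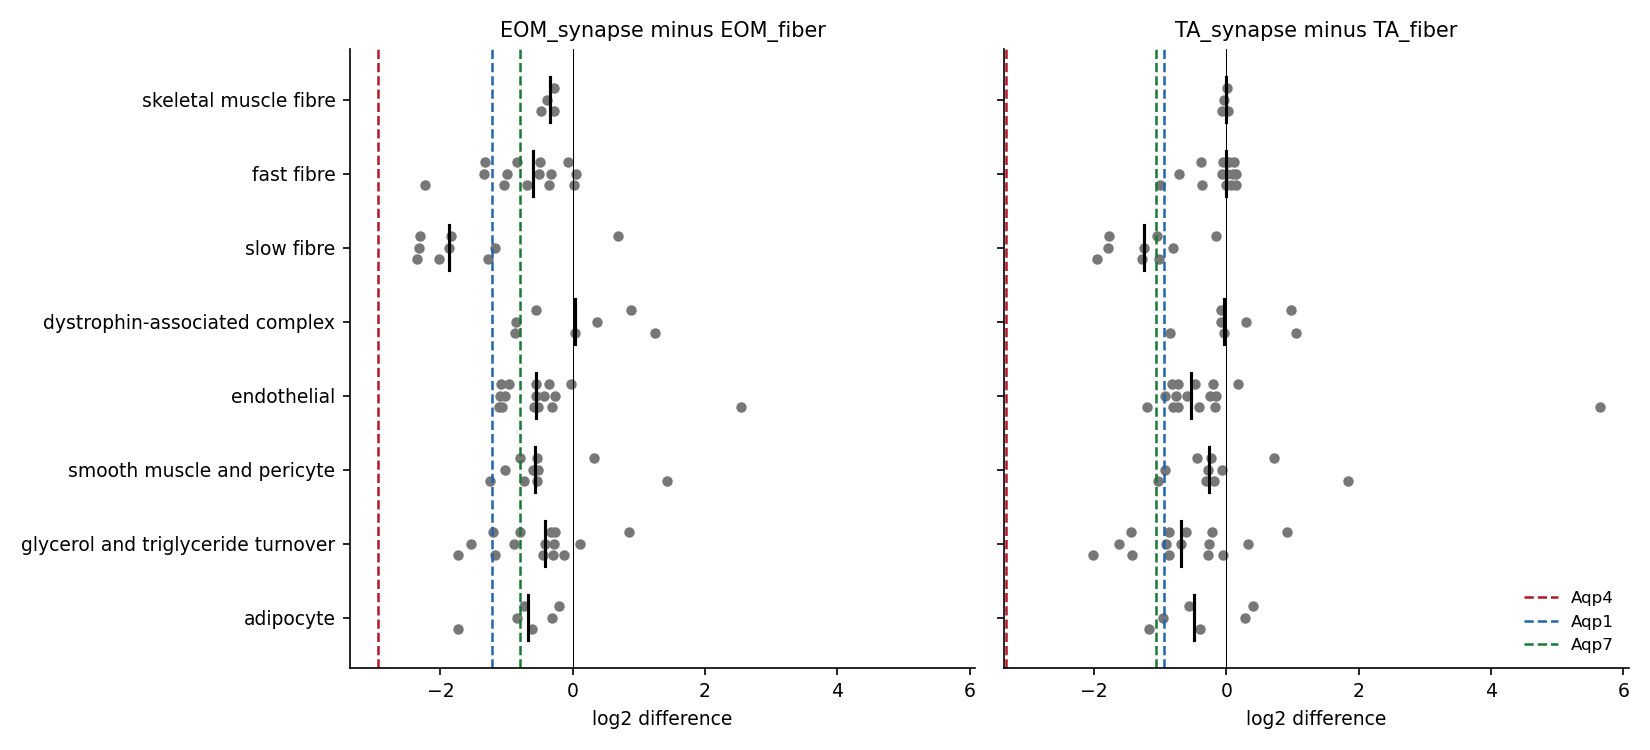
Log2 junction differences in EOM (left panel) and TA (right panel) of the measured genes of 8 lists, 1 point a gene, with a black bar at the list median and dashed lines at Aqp4, Aqp1 and Aqp7. Aqp4 lies left of every listed gene in both panels, and the point far to the right in the endothelial row is Plvap.

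By the likeness rule, the 5 genes with the highest Pearson correlation with each member over the 16 arrays were named, out of 10415 compared. The arrays fall into 4 groups and share rats, which enters every one of these values. Nearest to Aqp4 were Atp8a1, a phospholipid flippase (r = 0.890), Masp1, a serine protease of the lectin pathway of complement (0.884), Synpo2l (0.875), the phosphodiesterase Pde4d (0.861) and Cabcoco1 (0.858). Their junction differences were smaller than those of Aqp4, at -1.36 to -0.43 in EOM and -1.22 to -0.44 in TA. Nearest to Aqp1 were Prune2 (0.911), Doc2g (0.905), Hrc, a calcium-binding protein of the sarcoplasmic reticulum (0.895), the magnesium transporter Slc41a1 (0.893) and Sorl1 (0.892). Nearest to Aqp7 were Pdgfrb, a receptor of pericytes (0.891), the respiratory chain subunit Uqcrc1 (0.831), Gstm7 (0.83), Mpst (0.822) and Arl16 (0.814). The intensity of Aqp7 was only 3.85 to 79.9 over the 16 arrays, which limits what its correlations can show. Between members the correlations were 0.603 for Aqp4 and Aqp1, 0.657 for Aqp4 and Aqp7, and 0.429 for Aqp1 and Aqp7.

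The median intensity ran from 36.0 to 44.9 in EOM_synapse, 39.4 to 57.0 in EOM_fiber, 37.1 to 53.2 in TA_synapse and 33.4 to 51.5 in TA_fiber. The log2 ratio of the 3' to the 5' control probe set of Gapdh is a measure of RNA length after amplification. A higher ratio stands for shorter RNA. The ratio ran from 3.06 to 3.62, 3.42 to 3.89, 2.97 to 4.25 and 3.39 to 3.95 in the same order of groups. By rat it was 3.62, 3.33, 3.06 and 3.37 in EOM_synapse, against 3.89, 3.59, 3.42 and 3.59 in EOM_fiber. The Gapdh ratio was thus lower at the EOM junction in 4 of 4 rats, the side of longer RNA. In TA it was lower at the junction in 3 of 4 rats. The same ratio for actin ran from 2.40 to 4.75 in EOM_synapse, 3.06 to 3.59 in EOM_fiber, 3.71 to 4.52 in TA_synapse and 3.36 to 4.81 in TA_fiber. By rat the actin ratio was 4.75, 2.40, 3.79 and 3.34 in EOM_synapse, against 3.10, 3.59, 3.10 and 3.06 in EOM_fiber. It was thus higher at the EOM junction in rats 15, 27 and 29, opposite to Gapdh. At the TA junction the actin ratio was higher in rats 25 and 27 and lower in rats 15 and 29. The part of RNA length in the results was not tested. No transcript count stands behind an intensity, so the number of arrays limits the precision.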

How the data were processed

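The deposited files give the intensity of each probe set on a linear scale, 1 value for each of 31099 probe sets on 16 Affymetrix arrays, scaled by the authors to a common trimmed mean (150.06 to 150.08 without the top and bottom 2%, as the values show). The sources used here do not name the software that summarised probes. Per the labels' protocols, amplification started from an oligo(dT) primer, which favours transcript 3' ends, so that a probe set far from the 3' end can read low.

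From these, log2(intensity + 16) was quantile normalized without the 57 control probe sets. Names came from the array's annotation, with symbols updated by gene ID through the GRCr8 gene table, used with the RefSeq promoter table of that assembly: 20826 probe sets had 1 gene, 436 had more, and 9780 had no entry. Only probe sets above the array median in 4 or more arrays entered, and among those of 1 gene the brightest on average was kept (10416 genes). Limma 3.58.1 in R 4.3.3 fitted 4 group means plus a fixed term for the rat (9 residual and 4.58 prior degrees of freedom), p-values of each of the 5 contrasts were adjusted by Benjamini-Hochberg over the 10416 genes, and the fit was tested on simulated data. The replicate number in the titles was read as the animal, from the labels' statement of 4 rats. After group means were removed, the 24 pairs of arrays from 1 rat had a mean correlation of 0.112, between -0.067 and 0.245, with 16 pairs over 0.1. For 15 of the 16 arrays the correlation averaged over the arrays of each rat was highest for the array's own rat. Removing group means lowers the correlation between arrays of 1 group, which enters only the averages of the other rats. This count therefore leans towards the pairing from the start.

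The members, the 10 partner lists, the tests and the alternatives were chosen with earlier results of these data known. A test planned for Aqp4 between TA_synapse and TA_fiber is given without p, because its rank among all genes could have been seen when the members were chosen. Named genes are the members' probe sets, all other aquaporins, up to 4 genes a list and contrast past adjusted p 0.05 with 1 sign in all 4 rats by size, the genes Dmd, Dag1, Kcnj10, Gk, Lipe, Pnpla2, Pecam1, Cdh5 and Vwf, and the 5 genes most correlated with each member. Hbb, Adipoq and genes below the filter, as defining markers of their lists, and Cav3 were named after their values were seen. Only a part of the list genes is printed, and 1 further gene that the rule names singly is not reported here. Alternatives covered the scaling, the rat block, pseudocounts of 1 and 64, the filter, the arrays in the fit, the prior, the probe set, and leaving out arrays or rats. The counts of lists without arrays and under other scalings were added after seeing the data.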

Additional observations from a re-analysis of the deposited data

Results flagged for a closer look

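In EOM_synapse the array of rat 29 stood apart for Aqp4 on probe set 1372190_at, at 7.75 where the other 3 arrays lay from 6.68 to 6.86, a gap just over the limit for 4 values. This was 1 of 24 groups of 4 arrays checked over 6 probe sets, those of the members and of Aqp12a that passed the filter, and chance alone would mark about 1 in 20 groups. Without that array the difference between EOM_synapse and TA_synapse was -0.08 (adjusted p = 0.94), and the lower level of Aqp4 at the EOM junction kept its direction.

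For 3 genes set beside the members the test of the difference between the muscles' junction differences passed the threshold, in each case not under all settings. Gpd1, the cytosolic glycerol-3-phosphate dehydrogenase, had an interaction of -1.53 ± 0.28 with 4 of 4 rats lower in EOM (limma adjusted p = 0.0185), a call lost without TA_synapse 15 or 29 (adjusted p = 0.0508 to 0.0516) and without any 1 rat, after median centring (0.344), with the mean of the probe sets (0.658) and without the 3 arrays of highest median (0.0572). Mybpc2 had -1.45 ± 0.28 with 4 of 4 rats (limma adjusted p = 0.0285), a call lost in 11 of 16 fits without 1 array and without rat 15, 25 or 27. It was also lost with no replicate block (adjusted p = 0.052), as deposited (0.0722), median centred (0.269), with a pseudocount of 1 (0.0534), with no filter (0.0524) and without the 3 arrays of highest median (0.113). Plvap, the diaphragm protein of fenestrated endothelium, had -3.10 ± 0.53 with 4 of 4 rats (limma adjusted p = 0.0117), a call kept without any 1 array and lost without rat 15, 25 or 27 (adjusted p = 0.0805 to 0.109), with a pseudocount of 1 (0.097) and without the 3 arrays of highest median (0.0624).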

How the results depend on the processing

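For the members, 163 of 187 values under other settings and 262 of 300 values with an array or rat left out kept their direction and their side of the threshold, or moved by less than the spread. The cause was not tested for the rest. Between EOM_synapse and TA_synapse Aqp4 was -0.0022 with a pseudocount of 64, -0.036 with the mean of its probe sets, -0.13 on 1368981_at, -0.34 without the 3 arrays of highest median and -0.36 to 0.53 with 1 array or rat left out. Aqp7 was -0.021 with a pseudocount of 64, -0.23 without the 3 arrays and -0.23 to 0.42. Between the fibre groups Aqp4 was -0.62 to 0.063 under other settings, the highest without the 3 arrays. It was -0.91 on 1368981_at and -0.55 to 0.038 with 1 array or rat left out. Interactions without the 3 arrays were -0.40 for Aqp4 and -0.12 for Aqp7, the last at -0.10 to 0.57 with 1 array or rat left out.

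Aqp1 between TA_synapse and TA_fiber lost its call median centred (-0.96, adjusted p = 0.082), with no filter (-0.94, 0.056), with the mean of its probe sets (-0.65, 0.197), on 1387651_at (-0.35, 0.755) and without the 3 arrays (-0.87, 0.129), and ranged from -1.16 to -0.75 with 1 array or rat left out. Between EOM_synapse and TA_synapse it was 1.0 from only the arrays compared (adjusted p = 0.0514), 0.47 with the mean (0.318), -0.070 on 1387651_at and 0.81 to 1.35. Between the fibre groups it was 0.86 with the mean and 0.43 on 1387651_at. Aqp4 was -2.18 with the mean and -1.42 on 1368981_at at the EOM junction, and -2.19 on 1368981_at at the TA junction. Aqp7 at the TA junction passed the threshold as deposited (-1.02, adjusted p = 0.0482) and with a filter of 8 arrays (-1.06, 0.0465), and ranged from -1.45 to -0.71 with 1 array or rat left out.

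Counts of genes moved too. Median centring gave 1139 between EOM_synapse and TA_synapse (main 1712), 689 at the EOM junction (main 1055, with 585 higher and 470 lower against 547 and 142) and 56 for the interaction (main 96), where it set the median of all genes at 0.10. The interaction count was 46 and 218 with pseudocounts of 1 and 64, and 204 with an intensity trend. Only the arrays compared gave 582 between the fibre groups (main 1620) and 606 at the TA junction (main 1066). With 1 array or rat left out the counts were 976 to 1717 between the fibre groups, 947 to 1940 between the junctions, 491 to 1146 at the EOM junction, 602 to 1210 at the TA junction and 23 to 105 for the interaction. With no replicate block Aqp1 had an adjusted p of 0.0147 between the junctions and 0.0307 at the TA junction, and neither this fit nor a random replicate block changed a call of the members. Of the named partner genes, 1150 of 1285 values under other settings and 1807 of 2156 with an array or rat left out kept their call, none reversed, and the others lost it. Signal near the background limits Aqp7 and the dim probe sets of Aqp4 and Aqp1.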
